A study of Mus musculus with 12 samples.

Results

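The 10 genes Saa1, Saa2, Saa3, Saa4, Orm1, Orm2, Orm3, Lcn2, Hp and Crp encode acute-phase proteins of mouse plasma. They were taken by gene symbol from a table of 55450 genes and followed through 12 libraries of brain and liver RNA. All 10 symbols were found, each in 1 row. They were chosen by name with their expected counts in these 12 libraries already known, so their levels and genotype differences below are a description, and any p-value comes from a fit over all genes and supports no claim about them.

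The acute-phase response is the change in plasma protein output that follows infection, injury or other inflammation. It is driven mainly in hepatocytes: IL-6 acts through its receptor, gp130 (Il6st), JAK kinases and STAT3, IL-1 and TNF act through NF-kB, and factors of the C/EBP family work with both. Positive acute-phase proteins rise in this response and negative ones, such as albumin and transthyretin, fall. In the mouse, serum amyloid A and haptoglobin are strong responders, and C-reactive protein is a weak one.

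The series compared male mice aged 7 to 9 weeks that carried or lacked Vaultrc5, the gene for a mouse vault RNA (a short non-coding RNA of the vault particle). The controls were labelled wild type (Vaultrc5+/+, with "flx" in the library titles) and the others knockout (Vaultrc5-/-), and no treatment was named in either genotype. RNA from brain or liver was depleted of ribosomal RNA and sequenced as stranded total RNA, giving 3 libraries for each of 4 groups: wild-type and knockout liver, and wild-type and knockout brain. Nothing in the labels says that libraries of a group came from separate animals, or that the brain and liver libraries of 1 number came from the same animal, so p-values here measure only the spread between libraries.

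The deposited values are expected counts, that is, reads per gene with reads shared between genes divided in fractions. They summed to 23247425 to 27155478 per liver library and 14844937 to 18567362 per brain library. Levels are given in CPM, counts scaled to library size with TMM factors within a tissue, and 3 counts, taken as the floor, equal 0.110 to 0.128 CPM in liver and 0.165 to 0.198 CPM in brain. Vaultrc5 had 33, 39 and 48 counts in wild-type liver replicates 1 to 3 and 0 in each knockout liver library, and 4, 1 and 4 counts against 0 in each knockout in brain. The hepatocyte marker Alb had 714287 to 1350529 counts per liver library and 0 to 5 in the brain ones, and the neuronal marker Snap25 had 31003 to 40259 counts in brain libraries and 0 to 3 in liver libraries. In liver, knockout replicate 2 stood apart from the other 5 libraries in the results below, so the genotype estimates are given with and without it.

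The genes lie in 2 clusters and at 3 single loci on the GRCm38 build (GENCODE M21), all are protein coding, and no exon of theirs overlaps an exon of another gene. On chromosome 7, Saa3 (chr7:46711998-46715700), Saa4 (chr7:46727998-46732603) and Saa1 (chr7:46740497-46742980) lie on the minus strand, and Saa2 (chr7:46751790-46754313) lies on the plus strand. On chromosome 4, Orm1 (chr4:63344560-63348163), Orm3 (chr4:63356162-63359511) and Orm2 (chr4:63362449-63365878) follow each other on the plus strand. Lcn2 is at chr2:32384633-32388252 and Hp at chr8:109575128-109579172, both on the minus strand, and Crp is at chr1:172698055-172833031 on the plus strand.

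RefSeq promoter sequences (GRCm38.p6) were matched for 8 of the 10 genes, Orm1 and Hp being without an entry. The 250 bases upstream of the start are printed, 5′ to 3′ along the gene, for the 4 genes with the largest liver range (Saa1, Saa2, Orm2 and Lcn2) and for Crp, the gene with the smallest, so that the promoters of the extremes can be compared. The starts are those of RefSeq and can differ from the GENCODE positions given above: the Lcn2 stretch lies within the GENCODE span of Lcn2, and the Saa2 stretch runs past the GENCODE start of Saa2. Capitals mark matches on either strand to TTGCNNAA, letters of the C/EBP binding motif.
Saa1 (chr7:46742981-46743230, strand -): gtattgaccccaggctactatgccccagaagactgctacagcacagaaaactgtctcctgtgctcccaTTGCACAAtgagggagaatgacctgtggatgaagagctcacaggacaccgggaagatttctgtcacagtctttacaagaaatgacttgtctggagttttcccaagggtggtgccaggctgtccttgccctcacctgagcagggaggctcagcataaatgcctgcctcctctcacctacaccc
Saa2 (chr7:46751583-46751832, strand +): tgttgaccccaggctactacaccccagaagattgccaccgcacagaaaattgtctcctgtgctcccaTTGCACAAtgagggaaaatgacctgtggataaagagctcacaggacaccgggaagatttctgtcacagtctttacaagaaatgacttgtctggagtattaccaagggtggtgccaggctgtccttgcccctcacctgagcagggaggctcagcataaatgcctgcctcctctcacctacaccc
Orm2 (chr4:63362199-63362448, strand +): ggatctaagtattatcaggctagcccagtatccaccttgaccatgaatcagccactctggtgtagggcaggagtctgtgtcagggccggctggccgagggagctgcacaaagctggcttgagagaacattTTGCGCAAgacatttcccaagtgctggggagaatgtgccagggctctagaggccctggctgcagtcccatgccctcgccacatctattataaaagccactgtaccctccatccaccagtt
Lcn2 (chr2:32387740-32387989, strand -): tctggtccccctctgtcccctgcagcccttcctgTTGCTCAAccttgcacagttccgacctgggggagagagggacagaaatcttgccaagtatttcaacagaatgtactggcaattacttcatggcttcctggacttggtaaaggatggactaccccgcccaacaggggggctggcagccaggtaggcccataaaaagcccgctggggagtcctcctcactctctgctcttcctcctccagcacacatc
Crp (chr1:172697806-172698055, strand +): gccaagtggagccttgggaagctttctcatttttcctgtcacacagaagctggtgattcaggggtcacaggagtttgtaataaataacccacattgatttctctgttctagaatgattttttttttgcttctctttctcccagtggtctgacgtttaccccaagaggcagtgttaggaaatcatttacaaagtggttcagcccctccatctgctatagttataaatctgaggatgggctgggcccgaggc

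Windows of 300 bases, from 250 before to 50 after the start, were searched on both strands. TTGCNNAA was present in 7 of the 8 promoters (Saa1, Saa2, Saa3, Saa4, Orm2, Orm3 and Lcn2) and not in that of Crp, and in 10.8% of all 32851 RefSeq mouse promoters of this length. Counted from the start, with -1 the base before it, the match began at -182 in Saa1, -183 in Saa2, -120 in Orm2, -121 in Orm3, -99 in Saa3 and -216 in Lcn2, and Saa4 had a match at -245 and another at -52. The Saa1 and Saa2 windows were 96.0% identical and those of Orm2 and Orm3 89.2% identical, so these matches are not independent. The NF-kB consensus (of 10 letters) was in 0 of the 8 windows and in 4.51% of all promoters, and the STAT letters TTCNNNGAA were in 0 of the 8 and in 8.3% of all. TATAAA was in the windows of Orm2, Orm3 and Crp, and in 13.6% of all. A match is a run of letters, not a shown binding site, and the search covered no letters outside these windows.

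In liver the 10 genes shared a single pattern: each was highest in knockout replicate 2. Of all 15329 genes tested in liver, 23.7% were highest in that library. The excess over the next-highest library ran from 46.4-fold for Lcn2, 28.6-fold for Orm2 and 21.6-fold for Saa2 to 1.20-fold for Crp. The wild-type and knockout ranges overlapped for all 10 genes, that is, 0 of 10 separated the genotypes, against 9.84% of all genes tested. Within the 3 pairs of the same replicate number, the knockout was higher in every pair for 2 of the 10, Orm1 and Crp, and lower in every pair for 0, against 15% and 13.8% of all genes tested. Together the 10 genes held 0.827% of the counts of knockout replicate 2, and 0.164% to 0.246% of the counts of the other 5 liver libraries. Fewer cells of a type and less RNA per cell cannot be told apart in bulk tissue RNA.

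**Figure D1:**
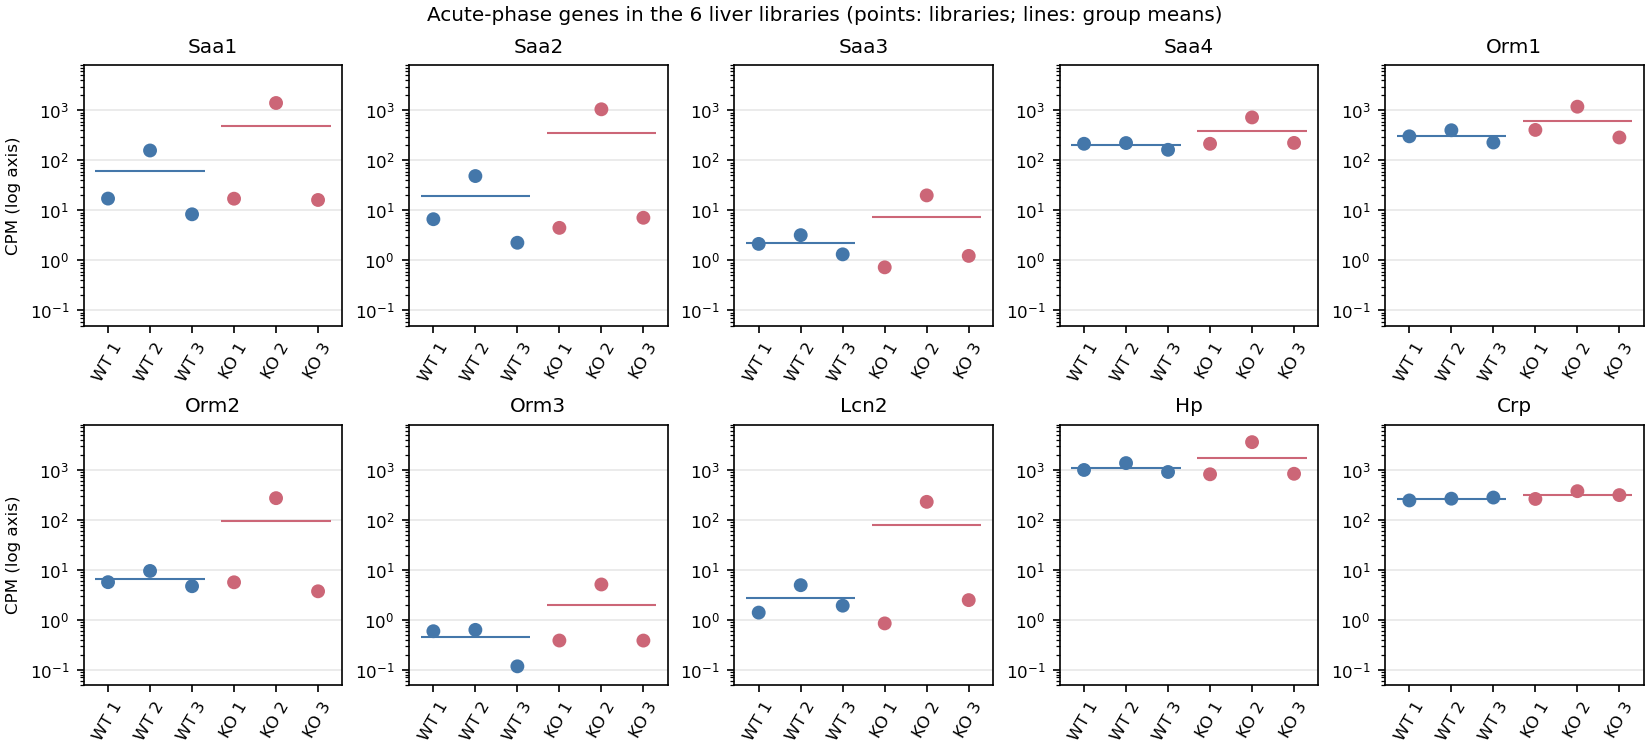
Level of each acute-phase gene in CPM (log axis) in the 3 wild-type (WT, blue) and 3 knockout (KO, red) liver libraries. Each point is a library and each line a group mean; KO 2 is the highest point in all 10 panels, from 1.20-fold above the next library for Crp to 46.4-fold for Lcn2, while the other 2 knockout points lie within or near the wild-type range.

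Saa1 and Saa2 encode the main serum amyloid A proteins of mouse plasma, which travel on high-density lipoprotein. Saa1 stood at 17.3, 158 and 8.37 CPM in control livers 1 to 3 (the wild-type replicates) and at 17.2, 1407 and 16.2 CPM in knockout livers 1 to 3. Saa2 stood at 6.68, 48.7 and 2.26 CPM in control livers 1 to 3 and 4.48, 1053 and 7.14 CPM in knockout livers 1 to 3. Both genes were thus high in the library numbered 2 of each genotype, far more so in the knockout, and the other 4 libraries lay within 8.37 to 17.3 CPM for Saa1 and 2.26 to 7.14 CPM for Saa2. The group means of Saa1 were 61.2 ± 83.9 CPM (SD, n = 3) over control livers and 480 ± 803 CPM over knockout livers, so the SD exceeded the mean in both.

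Saa3, the serum amyloid A gene that macrophages and fat cells also use, had a lower mean in wild-type liver than Saa1 or Saa2, with a range that overlapped that of Saa2. It stood at 2.14, 3.20 and 1.32 CPM in control livers 1 to 3 and 0.728, 19.99 and 1.23 CPM in knockout livers 1 to 3. The 2 knockout libraries other than replicate 2 were the lowest of the 6. Saa4 encodes the constitutive serum amyloid A, and it stood at 215, 222 and 163 CPM in control livers 1 to 3 and 215, 724 and 224 CPM in knockout livers 1 to 3. Apart from knockout replicate 2, at 3.23-fold above the next library, the Saa4 libraries differed from each other by at most 1.37-fold.

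The Orm genes encode alpha-1-acid glycoproteins, plasma lipocalins that carry small lipophilic molecules. Orm1, the most abundant of them, stood at 303, 401 and 228 CPM in control livers 1 to 3 and 407, 1187 and 287 CPM in knockout livers 1 to 3. Orm2 stood at 5.63, 9.43 and 4.67 CPM in control livers 1 to 3 and 5.59, 269 and 3.70 CPM in knockout livers 1 to 3. Orm3 stood at 0.588, 0.626 and 0.117 CPM in control livers 1 to 3 and 0.383, 5.06 and 0.382 CPM in knockout livers 1 to 3, so 5 of its 6 libraries held 3 to 17 counts. Outside knockout replicate 2 the wild-type and knockout libraries of all 3 Orm genes overlapped.

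Lcn2 encodes lipocalin 2, which binds bacterial siderophores and is also a granule protein of neutrophils. It stood at 1.39, 4.90 and 1.91 CPM in control livers 1 to 3 and 0.843, 227 and 2.46 CPM in knockout livers 1 to 3, or 22, 5342 and 58 counts in the 3 knockout libraries. This was the widest gap of the 10 genes between the highest library and the next. Hp encodes haptoglobin, the plasma protein that binds free haemoglobin, and stood at 986, 1353 and 898 CPM in control livers 1 to 3 and 808, 3550 and 827 CPM in knockout livers 1 to 3. Crp encodes C-reactive protein, a pentraxin that binds phosphocholine, and stood at 242, 263 and 277 CPM in control livers 1 to 3 and 260, 371 and 310 CPM in knockout livers 1 to 3. Crp was the steadiest of the 10, with an SD of 6.65% of the mean in the wild type and 17.8% in the knockout.

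The library numbered 2 was also the highest of the 3 wild-type livers for 9 of the 10 genes, all but Crp, against 29.5% of all genes tested. Wild-type replicate 2 was the second highest of all 6 libraries for Saa1, Saa2, Saa3, Orm2, Orm3, Lcn2 and Hp. The next after knockout replicate 2 was knockout replicate 3 for Saa4 and Crp, and knockout replicate 1 for Orm1. Within the knockout, replicate 2 was highest for 10 of 10 genes, against 36.4% of all genes tested. Measured as the median over the 10 genes of log2 (CPM + 0.5) minus the gene's liver median, wild-type replicate 2 stood at 0.61, knockout replicate 2 at 2.86 and the other 4 libraries between -0.35 and -0.01.

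Between genes, levels were compared per length as TPM, counts divided by the length of the principal transcript and scaled to the same total in each library. In wild-type liver Hp was highest at 1312 ± 271 TPM (SD, n = 3), followed by Orm1 at 655 ± 172 and Crp at 252 ± 18.8 TPM. Saa1 at 162 ± 222 TPM, with libraries from 22.9 to 418 TPM, did not differ beyond its spread from Crp, from Saa4 at 157 ± 23.3 TPM or from Saa2 at 47.6 ± 63.2 TPM. Next by their means stood Orm2 at 13.9 ± 5.07, Saa3 at 6.54 ± 2.67, Lcn2 at 4.86 ± 3.30 and Orm3 at 0.935 ± 0.592 TPM, of which Orm2, Saa3 and Lcn2 each overlapped Saa2 and Saa3 overlapped Lcn2. In knockout replicate 2 the order changed: Hp (3798 TPM) and Saa1 (3325 TPM) led, and Saa2 (2324 TPM) and Orm1 (2204 TPM) followed. Crp (327 TPM or less in every knockout library) stood below Orm2 (500 TPM) and Lcn2 (357 TPM) there. This order depended on the length used. With exon union lengths, Orm1 (2204 TPM) stood above Saa1 (817 TPM) and Saa2 (602 TPM) there, and Crp (155 TPM) above Lcn2 (125 TPM). In wild-type liver those lengths put the mean of Saa4 (157 ± 23.3 TPM) above those of Crp (124 ± 9.27 TPM) and Saa1 (39.9 ± 54.5 TPM).

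Because Saa1 and Saa2 are near copies, their split was examined. The principal transcripts were 94.4% identical over 606 bases for Saa1 and Saa2, and 91.0%, 86.5% and 88.5% identical for Orm1 with Orm2, Orm1 with Orm3 and Orm2 with Orm3. Single members carried fractional counts in all 6 liver libraries, while the sums Saa1 + Saa2 + Saa3 and Orm1 + Orm2 + Orm3 were whole, within 0.015 counts, in 6 of 6. Reads were thus divided within each family, and the value of a single member carries an uncertainty that the replicate error does not cover, whereas a family sum does not depend on the split.

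The summed level of Saa1 + Saa2 was 23.9, 207 and 10.6 CPM in wild-type liver and 21.6, 2460 and 23.3 CPM in knockout liver. The sum Saa1 + Saa2 was whole in 4 of 6 liver libraries and not in the pair numbered 2. With Saa3 added, the sum was whole in all 6 and was 26.1, 210 and 11.9 CPM in control livers and 22.4, 2480 and 24.6 CPM in knockout livers. That of Orm1 + Orm2 + Orm3 was 309, 411 and 233 CPM in control livers and 413, 1461 and 292 CPM in knockout livers. Knockout replicate 2 was again the highest in both sums. The makeup of the families differed there as well: Saa2 took 42.8% of the Saa1 + Saa2 counts, against 20.8% to 30.6% in the other 5 libraries, and Orm2 took 18.4% of the Orm counts, against 1.27% to 2.29%.

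**Figure D2:**
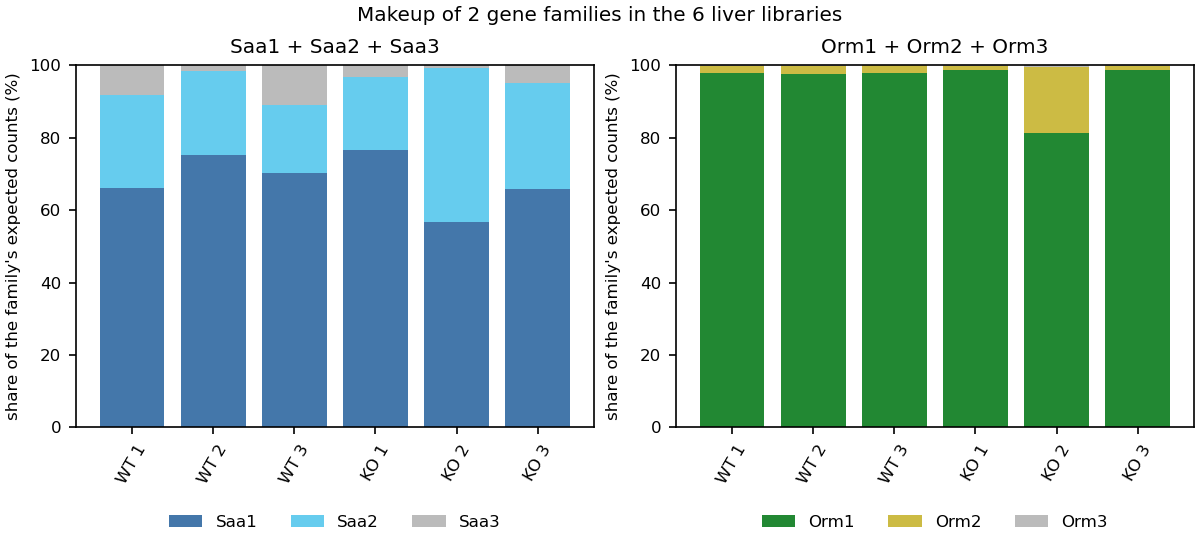
Share (%) of each gene in the summed expected counts of Saa1 to Saa3 (left) and Orm1 to Orm3 (right), 1 stacked bar per liver library (WT wild type, KO knockout). In KO 2 the Saa2 and Orm2 parts are the widest of the 6 bars, and Orm2 takes 18.4% of its family against at most 2.29% elsewhere.

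The genotype comparison in liver asks whether loss of Vaultrc5 changes these genes, and it called none of them. In edgeR's quasi-likelihood test over all genes, with Benjamini-Hochberg adjustment and a threshold of 0.05, 0 of 15329 genes passed (0%), so 0 of the 10 acute-phase genes did. All 10 passed the filter on low counts. At an unadjusted p under 0.05 stood 536 genes, none of them an acute-phase gene, and DESeq2's Wald test called 10 genes. The deleted gene Vaultrc5 was itself not called by edgeR (-8.29 ± 0.69, adjusted p = 0.333), but was called by DESeq2 (adjusted p = 7.77e-06) and by edgeR without the low-count filter (adjusted p = 0.0015), so a count of 0 does not show that no gene changed. DESeq2 gave no p-value for Lcn2, Saa1, Saa2, Saa3 and Orm2, so it could not call these 5, and it did not call the other 5.

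The estimates, as log2 fold change of knockout over wild type with its standard error, were all above 0, and 6 of the 10 standard errors were more than 1. Lcn2 was at 4.80 ± 2.35, Saa2 at 4.20 ± 2.61, Orm2 at 3.82 ± 1.91 and Saa1 at 2.97 ± 2.29. Orm3 was at 2.11 ± 1.24, Saa3 at 1.71 ± 1.36, Orm1 at 1.01 ± 0.58, Saa4 at 0.95 ± 0.53, Hp at 0.68 ± 0.65 and Crp at 0.27 ± 0.14. Each had an adjusted p of 0.992 in edgeR. The median of the 10 was 1.91, beside 0.01 over all genes tested.

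Leaving out knockout replicate 2 turned 7 of the 10 estimates negative and moved the median of the 10 to -0.45. Saa1 was then at -1.88 ± 1.60, Saa2 at -1.73 ± 1.58, Saa3 at -1.19 ± 0.45, Lcn2 at -0.74 ± 0.74, Orm2 at -0.50 ± 0.35, Hp at -0.40 ± 0.18 and Orm3 at -0.21 ± 0.70. Orm1 (0.16), Saa4 (0.13) and Crp (0.13) stayed above 0. With wild-type replicate 2 left out instead, the estimate was 5.23 ± 2.82 for Saa1 and 6.31 ± 3.39 for Saa2. With both libraries numbered 2 left out, an alternative added after the values were seen, the 9 genes still tested lay between -0.82 (Saa3) and 0.39 (Orm1), and Lcn2 was at -0.01 ± 0.55.

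Wild-type and knockout livers with the same replicate number deviated together over all genes, so a fit with the number as a block was also made. It called 2 genes (0.013% of those tested), Foxq1, a forkhead transcription factor, at 1.17 ± 0.08 (edgeR, adjusted p = 0.0132) and G0s2, an inhibitor of fat breakdown, at -1.20 ± 0.10 (edgeR, adjusted p = 0.0215), which are named after their values were seen. None of the acute-phase genes was called with the block. Their estimates were smaller with it: 3.00 ± 2.28 for Lcn2, 2.03 ± 1.64 for Saa2, 1.70 ± 1.91 for Orm2, 1.39 ± 0.93 for Saa1 and 0.77 ± 0.28 for Orm1.

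**Figure D3:**
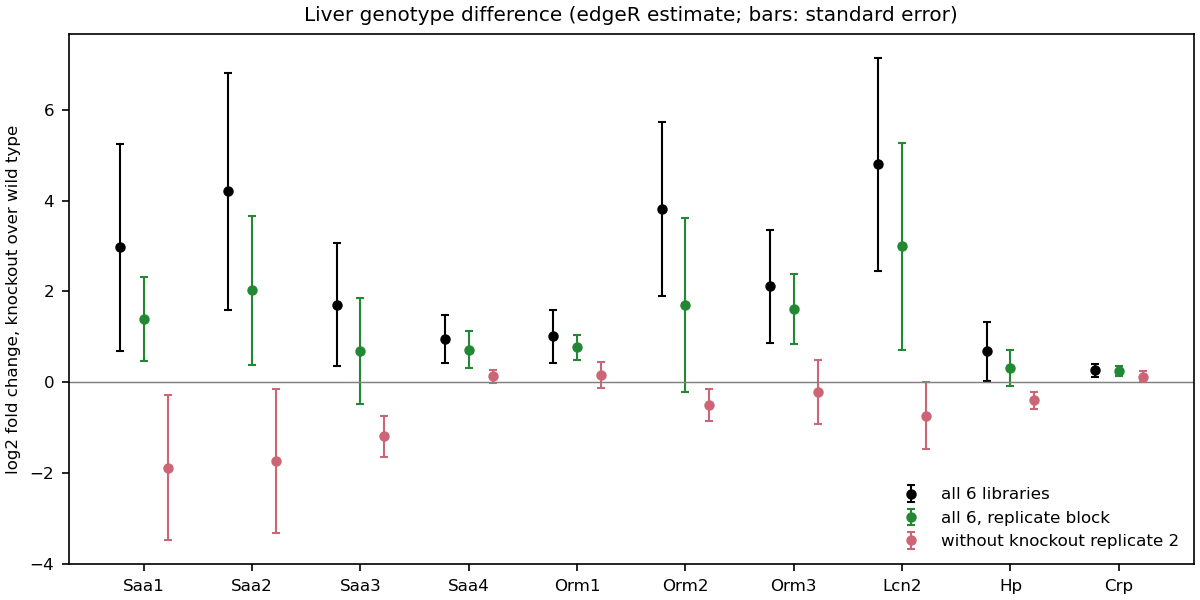
Estimated log2 fold change of knockout over wild type in liver for each acute-phase gene (edgeR, bars show the standard error) with all 6 libraries, with the replicate number as a block, and without knockout replicate 2. The estimates with all libraries lie between 0.27 (Crp) and 4.80 (Lcn2), and without knockout replicate 2 those of 7 genes lie below 0.

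Other genes of the response, taken from lists of known members, were set beside these 10. Of 25 further positive acute-phase genes, 24 were tested in liver and 0 rose or fell (edgeR), 20 had an estimate above 0, and their median log2 fold change was 0.44. Of the 24, 19 (79.2%) were highest in knockout replicate 2, against 23.7% of all genes tested. The median deviation of the 24 from the liver median was 0.93 there on the log2 scale. The 3 with the largest estimates were the metallothionein Mt2 (2.32 ± 1.35), the hepatokine Fgl1 (1.26 ± 0.99) and the metallothionein Mt1 (1.20 ± 1.13). No gene of this list stood at an unadjusted p under 0.05, and DESeq2 called none of it. Without knockout replicate 2, 13 of the 24 had an estimate above 0, the median was 0.03, and Mt2 was at -0.06 ± 0.70, Fgl1 at -0.38 ± 0.52 and Mt1 at 0.11 ± 1.17. The list was not uniform: the hepcidin gene Hamp, which limits iron export and is an IL-6 target, was lowest in that library, at 152 CPM against 199 to 399 CPM in the other 5.

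The fibrinogen chains Fga, Fgb and Fgg, which form the clot protein, were each highest in knockout replicate 2. Fga stood at 3843, 4087 and 3733 CPM in control livers 1 to 3 and 4103, 7760 and 4103 CPM in knockout livers 1 to 3. Hpx, the haem carrier hemopexin, stood at 1599, 2115 and 1552 CPM in control livers 1 to 3 and 1423, 5067 and 1372 CPM in knockout livers 1 to 3. Lrg1, a leucine-rich plasma glycoprotein, stood at 168, 271 and 160 CPM in control livers 1 to 3 and 232, 760 and 181 CPM in knockout livers 1 to 3. For Hpx and Lrg1, as for 7 of the 10 acute-phase genes, wild-type replicate 2 was the next highest. The fibrinogen genes, and Hamp, Il6, Stat3 and Cd163 in this account, were picked after their values were seen. So were Alb, Rbp4 and Trf among the negative acute-phase genes in liver.

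As a list, the negative acute-phase genes did not mirror this. All 12 were tested, 0 were called (edgeR), 0 stood at an unadjusted p under 0.05, 6 had an estimate above 0, and the median was -0.04. In knockout replicate 2, 4 of the 12 (33.3%) were lowest, against 21.9% of all genes. These were Alb, Ttr, Rbp4 and Serpina6. Highest there was 1 of the 12 (8.33%), Trf, against 23.7% of all genes. The largest estimates were those of the hormone carriers Serpina6 (-0.35 ± 0.32), Serpina7 (0.24 ± 0.39) and Ttr (-0.24 ± 0.22). Without knockout replicate 2, 3 of the 12 had an estimate above 0 and the median was -0.05. Serpina6 was then at -0.15, Serpina7 at 0.41 and Ttr at -0.06. Alb, albumin, stood at 48546, 38997 and 52559 CPM in control livers 1 to 3 and 38228, 30374 and 54534 CPM in knockout livers 1 to 3. Ttr, transthyretin, stood at 3767, 2802 and 3342 CPM in control livers 1 to 3 and 2922, 2036 and 3424 CPM in knockout livers 1 to 3. Both were lowest in knockout replicate 2.

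Of 36 inducers, receptors and signal transducers, 29 were tested in liver and 0 were called (edgeR), 1 stood at an unadjusted p under 0.05, 19 had an estimate above 0 and the median was 0.07. In knockout replicate 2, 12 of the 29 (41.4%) were highest, against 23.7% of all genes tested. Il6 itself had 1, 0 and 1 counts in wild-type liver and 1, 3 and 1 in knockout liver, at or under the floor in every library. Socs3, the feedback inhibitor that STAT3 induces, had the largest estimate, 1.06 ± 0.80, and stood at 14.02, 7.92 and 3.07 CPM in control livers 1 to 3 and 24.9, 22.3 and 4.63 CPM in knockout livers 1 to 3. Its highest library was thus knockout replicate 1, in which none of the 10 acute-phase genes was highest. Tlr2, a receptor for bacterial lipoproteins, was next at 0.73 ± 0.44, and Il1r1, the IL-1 receptor, followed at 0.38 ± 0.25. Without knockout replicate 2, 18 of the 29 had an estimate above 0, the median was 0.04, and Socs3 was at 0.83 ± 0.99, Tlr2 at 0.09 ± 0.27 and Il1r1 at 0.06 ± 0.13. Stat3 stood at 100, 114 and 93.4 CPM in control livers 1 to 3 and 97.5, 165 and 125 CPM in knockout livers 1 to 3.

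Of 17 receptors and partners of the acute-phase proteins, 16 were tested in liver, 0 were called (edgeR), 2 stood at an unadjusted p under 0.05, 14 had an estimate above 0, and the median was 0.37. DESeq2 called no gene of the last 3 lists. The largest estimates were those of the haemoglobin chain Hba-a2 (2.48 ± 0.54, edgeR adjusted p = 0.992), the formyl peptide receptor Fpr2 (0.97 ± 0.52) and the haemoglobin chain Hbb-bs (0.97 ± 0.36). Without knockout replicate 2, 11 of the 16 had an estimate above 0, the median was 0.10, and Hba-a2 was at 2.61 ± 0.60, Fpr2 at 0.42 ± 0.52 and Hbb-bs at 1.02 ± 0.44. The globin genes have near-identical copies, so their single values are uncertain in the same way as those of Saa1 and Saa2. Cd163, the macrophage receptor for the haptoglobin-haemoglobin complex, stood at 9.07, 14.7 and 15.7 CPM in control livers 1 to 3 and 12.6, 31.1 and 16.1 CPM in knockout livers 1 to 3, highest in knockout replicate 2.

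**Figure D4:**
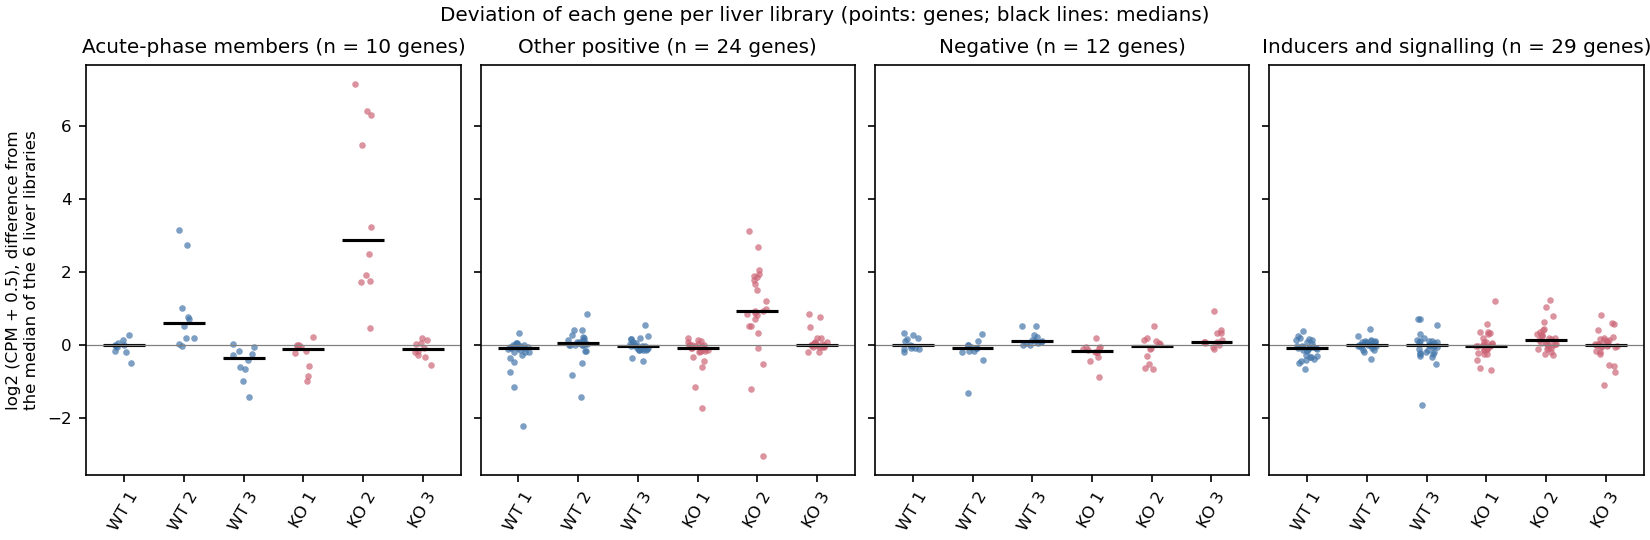
Deviation of each gene from its median over the 6 liver libraries, on the log2 (CPM + 0.5) scale, for the 10 acute-phase genes, 24 further positive and 12 negative acute-phase genes, and 29 inducers and signalling genes (WT wild type, KO knockout). Points are genes and black lines medians; in KO 2 the medians are 2.86, 0.93, -0.02 and 0.15 in that order.

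Summed markers of some other cell types also stood apart in this library, though edgeR called no marker gene. Only 1 of 12 neutrophil and 2 of 6 adipocyte markers passed the low-count filter in liver, so the rest could not be called. The summed level of 12 neutrophil and granule markers was 1.93, 3.50 and 1.71 CPM in wild-type liver and 2.26, 9.31 and 3.48 CPM in knockout liver. In knockout replicate 2, 0 of the 12 were at 0 counts, against 5 to 7 of the 12 in each other liver library. Csf3r had 92 counts in knockout replicate 2, and the other neutrophil markers had 1 to 37. The 9 monocyte and macrophage markers summed to 107, 144 and 121 CPM in control livers and 149, 259 and 126 CPM in knockout livers, none at 0 in any. Of the 8 tested, 8 were highest in knockout replicate 2, against 23.7% of all genes tested. The 7 hepatocyte markers summed to 66640 to 85092 CPM in 5 libraries and to 57328 CPM in knockout replicate 2. Lowest there were 5 of the 7, against 21.9% of all genes tested. Alb, which is also on the negative acute-phase list, gave 30374 CPM of that sum. Apob was highest in knockout replicate 2, at 15996 CPM against 12808 to 15278 CPM in the others. The 6 lymphocyte markers summed to 4.46 CPM there and to 2.06 to 3.29 CPM elsewhere. Other lists did not set this library apart: the 7 endothelial markers summed to 281 CPM there and 248 to 305 CPM elsewhere, and the 5 red cell markers to 120.0 CPM there, 119 CPM in knockout replicate 1 and 79.8 to 113 CPM in the rest. The 6 adipocyte markers summed to 4.21 CPM there and were highest in knockout replicate 1, at 12.1 CPM, where Adipoq and Plin1, picked after their values were seen, had 43 and 44 counts against 0 in knockout replicate 2. Mitochondrial genes took 4.65% of the counts in knockout replicate 2 and 4.83% to 6.66% in the others. The part of these cell types in the levels of the acute-phase genes was not tested.

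The genes whose liver pattern was most like that of the 10 were found by Pearson correlation with their mean profile of centred log2 (CPM + 1) over the 6 liver libraries. The 10 acute-phase genes themselves, each a part of that profile, had r of 0.954 to 0.990, except Crp at 0.780. Among 628 other genes with a mean of at least 1 CPM and an SD of at least 0.5, 61 (9.71%) had r above 0.9. The closest were the amino acid transporter subunit Slc3a1 (r = 0.996), Cyb561 (0.989), Hpx (0.988), the citrate transporter Slc13a5 (0.988) and the kinase gene Hunk (0.987). Ppp1r14a (0.984), the trefoil factor Tff3 (0.981), the co-chaperone Dnajc12 (0.980), the NF-kB adaptor Tifa (0.978) and Lrg1 (0.975) completed the 10. These values describe 6 points of which 1, knockout replicate 2, lies far from the rest. Over the 5 others, an alternative added after the values were seen, 1 of the 61 genes, Slc3a1 (r = 0.954), had r above 0.9. Of all 628 candidates, 3 did. Among the 61, 59 had r above 0, and their median r was 0.61, beside -0.03 over the 628. Of the acute-phase genes, Saa1, Saa2 and Hp had r of 0.907 to 0.996 over these 5 libraries, and Crp was at -0.191. The rest ran from 0.55 (Saa4) to 0.85 (Orm2). Each is part of the mean it was compared with, so these values are no independent measure of likeness. Slc3a1 stood at 27.8, 36.0 and 20.9 CPM in control livers 1 to 3 and 24.3, 104 and 23.2 CPM in knockout livers 1 to 3. Tff3 stood at 0.588, 1.03 and 0.389 CPM in control livers 1 to 3 and 0.843, 10.2 and 0.467 CPM in knockout livers 1 to 3.

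In brain the acute-phase genes were nearly silent. Saa4, Orm1, Orm2, Orm3 and Crp had 0 counts in all 6 libraries, which allows up to 0.165 to 0.198 CPM per library, counting error only. Saa1, Saa2 and Saa3 had 0 to 2 counts per library. Lcn2 had 3, 2 and 2 counts in control brains 1 to 3 and 9, 101 and 3 in knockout brains 1 to 3, or 5.97 CPM in knockout replicate 2 and 0.110 to 0.594 CPM in the others. Hp had 1, 1 and 0 counts in the control brains and 0, 3 and 27 in the knockout ones, or 1.67 CPM in knockout replicate 3. A single knockout library was thus high for each of these genes, and it was not the same library.

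None of the 10 genes passed the filter on low counts in brain, and in the edgeR test 0 of 18075 genes were called (0%), with 122 at an unadjusted p under 0.05 and 0 by DESeq2. When genes were kept by a mean of at least 1 CPM, Lcn2 was tested and had a log2 fold change of 4.00 ± 1.39, with an adjusted p of 1.00 in edgeR. It passed that filter only through knockout replicate 2, so the value restates that library. Among the further genes of the response, 10 positive acute-phase genes, 4 negative ones, 25 inducers and signal transducers, and 13 receptors and partners were tested in brain. None was called by edgeR or DESeq2, and 0 stood at an unadjusted p under 0.05. The 2 largest estimates in each list were those of the complement gene C3 (1.57 ± 1.23) and Itih3 (-0.49 ± 0.37), the iron carrier Trf (-0.61 ± 0.45) and Ttr (-0.10 ± 2.22), Socs1 (0.56 ± 0.51) and Il1r1 (0.38 ± 0.17), and the melanocortin receptor Mc4r (-0.50 ± 0.63) and the antibody receptor Fcgr1 (0.43 ± 0.28).

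Beside Lcn2, the 12 neutrophil and granule markers summed to 4.21 to 5.68 CPM in 5 brain libraries and to 19.9 CPM in knockout replicate 2, the same library, in which 0 of the 12 were at 0, against 3 to 5 of the 12 in the others. There the granule genes Ngp and Ltf, picked like the other marker genes named beside Lcn2 and Hp after their values were seen, had 73 and 48 counts, against 5 to 20 and 4 to 9 in the other libraries. Beside Hp, the 6 adipocyte markers summed to 9.63 CPM in knockout replicate 3, where all 6 were detected. They summed to 0.117 to 0.414 CPM in the other 5 brain libraries, where Adipoq, Plin1, Lep, Fabp4 and Cidec were at 0 counts. The 7 hepatocyte markers summed to 13.0 to 18.8 CPM over the 6 brain libraries, of which Ass1, a urea cycle gene, gave 11.3 to 17.5 CPM. In knockout replicate 3, the library high for Hp, Cyp2e1 had 32 counts against 0 to 3 in the others, while Alb had 2 counts and Apob and Tat had 0. Genes of the lists above that were also high there, picked after their values were seen, were Itih4 with 24 counts against 0 to 1, Hamp2 with 15 against 0, Il22ra1 with 23 against 0 to 3 and C3 with 132 against 4 to 45. The part of these cell types in the Lcn2 and Hp counts was not tested.

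**Figure D5:**
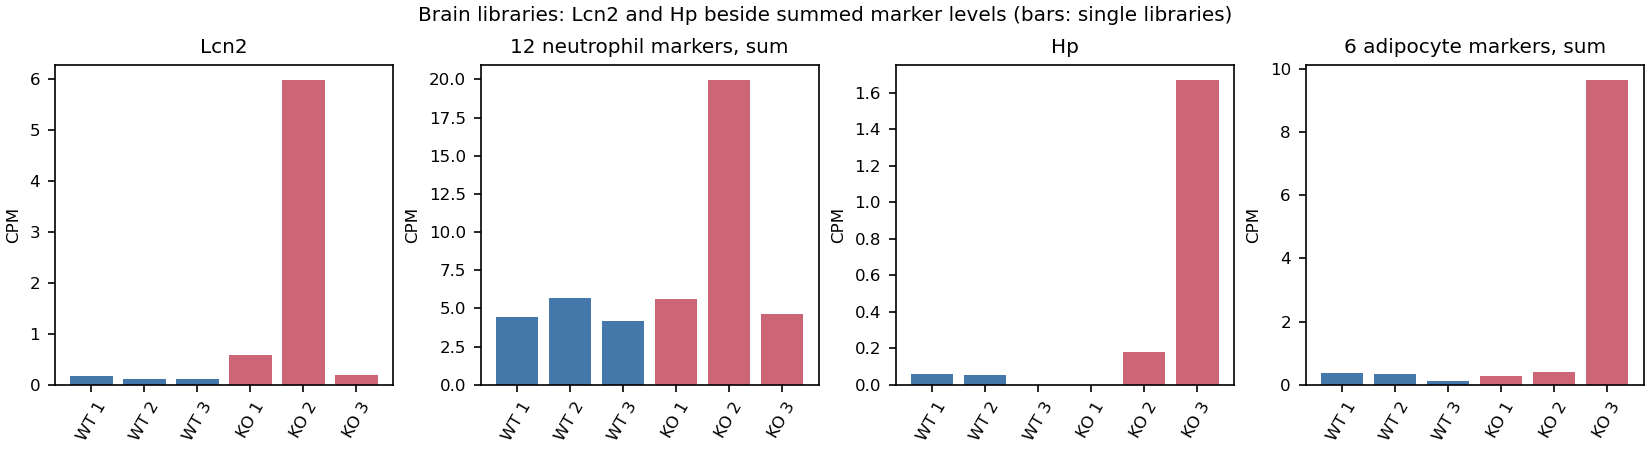
Level in CPM of Lcn2, the sum of 12 neutrophil markers, Hp, and the sum of 6 adipocyte markers in the 6 brain libraries (bars are single libraries; WT wild type blue, KO knockout red). Lcn2 and the neutrophil sum peak in KO 2, at 5.97 and 19.9 CPM, and Hp and the adipocyte sum peak in KO 3, at 1.67 and 9.63 CPM.

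The difference between the liver and brain knockout effects was fitted on all 12 libraries. In edgeR 0 of 20141 genes were called (0%), with 489 at an unadjusted p under 0.05 and 1 by DESeq2, and 0 of the 10 acute-phase genes. The difference, liver effect minus brain effect, was 0.75 ± 4.97 for Lcn2 and -3.10 ± 2.05 for Hp on the log2 scale. Both values rested on single libraries. Without knockout liver replicate 2, Lcn2 was at -4.75 ± 1.70 and Hp at -4.17 ± 1.53 (edgeR, adjusted p = 1.00 for both). Without knockout brain replicate 2, Lcn2 was at 3.37 ± 5.74, and without knockout brain replicate 3, Hp was at -0.43 ± 2.03. For the genes with 0 counts in brain it has no usable error.

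Between the wild-type tissues, each of the 10 genes had 0 to 3 counts in every wild-type brain library. Of the 9 tested, all but Orm3, 9 were called lower in brain than in liver, where 78.6% of 18850 genes were called in either direction and 34.7% as higher in liver (edgeR). The 9 passed the filter on low counts only through liver and could not have been called higher in brain, so their count supports nothing beyond the levels given here. Saa2 lost its call without wild-type brain replicate 2 (edgeR, adjusted p = 0.0593) or without the low-count filter (0.134), and Lcn2 in a joint fit of all 12 libraries (0.112). Set against the floor of 3 counts per brain library, liver was at least 3258-fold higher for Orm1, 2731-fold for Crp, 2098-fold for Saa4, 202-fold for Saa2, 68.9-fold for Orm2 and 4.65-fold for Orm3. The Saa2 bound rested on wild-type liver replicate 2 and was 46.7-fold without it. Where brain had counts, the ratio of liver to brain was 51276 for Hp (95% exact counting interval 14194 to 423410, from 2 brain counts), 3026 for Saa1 (837 to 24991), 106 for Saa3 (28.9 to 881) and 37.8 for Lcn2 (18.04 to 95.2). Without wild-type liver replicate 2 the ratio was 595 for Saa1 (164 to 4928) and 22.3 for Lcn2 (10.3 to 57.2). The intervals of Lcn2 and Saa3 overlapped. These folds rest on TMM scaling across tissues, under which the median gene was 0.21 higher in brain on the log2 scale. With library totals that median was 1.05, the split of calls moved from 8275 higher and 6542 lower in brain to 11635 and 3997, and the folds fell, to 1816 for Orm1, 28713 for Hp and 21.2 for Lcn2.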

How the data were processed

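Total RNA of 12 libraries (3 each of wild-type and knockout brain and liver) was measured by single-end stranded sequencing, and groups and replicate numbers come from the titles. The authors deposited expected counts per gene, not normalized; cutadapt, STAR and the build mm10 are named in the submitters' processing notes, and how reads were counted, and whether by strand, is not given in the sources used here. Between 5.06% and 5.71% of values per library were not whole, and all were rounded. The 55450 gene identifiers matched GENCODE M21.

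Tests used edgeR 4.0.16 (R 4.3.3) with TMM, filterByExpr (minimum count 10, total 15), the robust quasi-likelihood test and Benjamini-Hochberg adjustment at 0.05, each comparison on its own 6 libraries and the difference of effects on all 12. DESeq2 1.42.0, other scalings and filters, 1 joint fit, a replicate block, summed paralogs and each library left out in turn were alternatives. In simulated counts, known changes were given only to a sample of genes taken from those with higher mean counts. The liver fit recovered 94% of the 4-fold and 61% of the 2-fold changes in a set of 15329 genes. The brain fit recovered 92% and 51% in a set of 18075. The simulation held no outlying library like knockout liver replicate 2, so these shares do not apply to the acute-phase genes. On the measured counts the liver fit did not call the deleted gene Vaultrc5 itself.

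The acute-phase genes and gene lists were chosen with earlier results of these data known. Named are all 10 genes, from each list the 3 tested genes with the largest absolute log2 fold change in liver and the 2 in brain, and the 10 genes most like the 10 in liver; the text says where a gene was added after its values were seen. Pairs of replicates differed by 27.2 to 228 times the chi-square expected per degree of freedom, so none was a duplicate. Same-numbered liver libraries of both genotypes, numbered in the titles, had deviations from their group means that correlated at 0.25, 0.26 and 0.34 over 13321 genes. The main fits left the number out. It was used only in the replicate block and in the counts within same-numbered pairs. Floors and intervals cover counting error only. Promoters are from RefSeq and were searched with Python 3.11.15, and transcripts were aligned with Biopython 1.88.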

Additional observations from a re-analysis of the deposited data

How the results depend on the processing

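In liver, the count of called genes, 0 with edgeR, was 10 with DESeq2, 4 without the low-count filter (Gm20687, Nudc-ps1, Oaz1-ps and Vaultrc5), 2 with the replicate block, and 0 to 1 with single libraries left out, the 1 being Gm45837 without wild-type replicate 2. None of these was an acute-phase gene, but DESeq2 gave Lcn2, Saa1, Saa2, Saa3 and Orm2 no p-value and could not have called them. The names were added after the values were seen. For the difference of effects, 0 became 1 with DESeq2 (Gm20687) and 2 with the replicate block (Cela2a and Moxd1). In brain the count was 0 under every alternative run. Same-numbered brain libraries of both genotypes had deviations that correlated at 0.62, 0.65 and -0.01 over 16676 genes. Pairs 1 and 2 thus deviated together more closely than the liver pairs did, and pair 3 did not deviate together. The block gave 0 calls in brain, with 406 genes at an unadjusted p under 0.05 (edgeR).

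Without knockout liver replicate 2, Saa1 was at -1.88, Saa2 at -1.73, Saa3 at -1.19, Orm2 at -0.50, Orm3 at -0.21, Lcn2 at -0.74 and Hp at -0.40 on the log2 scale. Over the 6 fits that each left out a library, the highest values were 5.23, 6.31, 2.25, 4.38, 2.60, 5.53 and 1.02 in the same order, those of Saa1, Saa2 and Lcn2 without wild-type replicate 2. Without both libraries numbered 2, Saa3 was at -0.82, Orm2 at -0.15, Lcn2 at -0.0063 and Hp at -0.20. For the difference of effects, which has no usable error for the genes with 0 brain counts, 5 signs turned without knockout liver replicate 2, which gave the lowest values here. Saa2, at 1.57, ran from -4.35 to 4.21 with single libraries left out, Saa3, at 1.59, from -1.29 to 4.20, Orm2, at 3.79, from -0.50 to 4.36 and Orm3, at 2.10, from -0.21 to 2.58, and Saa2 was at -0.44 with the replicate block. Lcn2, at 0.75, was at -1.07 with the replicate block and ran from -4.75 (without knockout liver replicate 2) to 3.37 (without knockout brain replicate 2). The sum Saa1 + Saa2, at 3.38 ± 2.38, ran from -1.84 to 5.59 with single libraries left out and was 1.51 with the replicate block. That of the 3 Orm genes, at 1.18 ± 0.67, ran from 0.15 to 1.56 and was 0.85 with the block. Between tissues, Saa2 missed the threshold without the low-count filter (edgeR, adjusted p = 0.134) and without wild-type brain replicate 2 (0.0593), and Lcn2 in the fit of all 12 libraries (0.112). The other alternatives that gave a gene an adjusted p, among them other scalings, kept its direction and its side of the threshold. Counting error is widest for Orm3 in liver and for the genes with few counts in brain, and no alternative varied the depth.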
